A study of Mus musculus with 9 samples.

Results

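The insulin-like growth factor (IGF) family was examined through 10 genes in cultured mouse cardiac fibroblasts: the ligands Igf1 and Igf2, the receptors Igf1r and Igf2r, and the binding proteins Igfbp2, Igfbp3, Igfbp4, Igfbp5, Igfbp6 and Igfbp7. The members were chosen by gene symbol, matched to the Ensembl gene IDs of the deposited count table, and all 10 of them were found among its 38924 genes. The rule uses symbols and no measured value, though the family was picked with earlier results of these data known. The 2 ligands, 2 receptors and 6 binding proteins were followed over 9 RNA sequencing libraries.

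IGF1 and IGF2 are secreted growth factors that act on neighbouring cells through the receptor tyrosine kinase IGF1R, which signals to the PI3K and AKT kinases and to MAP kinases. IGF2R carries no kinase and takes IGF2 into lysosomes. IGF binding proteins hold the ligands in the extracellular fluid and matrix, where proteases such as PAPP-A release them again. In the heart, fibroblasts are a known source of IGF1, which acts on cardiac muscle cells and on the fibroblasts themselves.

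The cells were primary cardiac fibroblasts from adult mice 8 to 10 weeks old with the genotype C57BL/6 background Cas9GFP (RosaCas9-EGFP), so that cells of every group, controls included, carried Cas9, the nuclease that guides direct, with green fluorescent protein. They were kept in culture for 3 days, sorted as CD45-CD31-CD90+, replated, and given guide RNAs in lipid 6 days later at 80 to 90% confluency. Per the study's methods the mice were male, and RNA was taken at a single time point, days after the guides were given. There were 3 groups of 3 libraries each: control with scrambled guide RNAs, Gata4 KD with 2 guides to Gata4, and Tbx20 KD with 2 guides to Tbx20, both genes coding for transcription factors needed to form the heart. Libraries are named a, b and c within a group. In bulk samples of this kind, fewer cells with a transcript and less transcript per cell cannot be told apart, and the guides act only in cells that took them up.

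The guides that define the knockdown groups are shown because every comparison rests on them. The targeted sites, read 5′ to 3′ along the guide with the adjoining PAM in capitals, lie in exons of the annotated transcripts (GENCODE M21, GRCm38). The 2 scrambled guides matched no annotated transcript. The Gata4 sites are chr14:63204711-63204730 in exon 3 and chr14:63240581-63240600 in exon 2 of a transcript with 7 exons, and the Tbx20 sites are chr9:24770708-24770727 in exon 2 and chr9:24765732-24765751 in exon 4 of a transcript with 8 exons.
Gata4 guide in exon 3: cagagagtgtgtcaattgtgGGG
Gata4 guide in exon 2: gcaggactgggctgtcgaagGGG
Tbx20 guide in exon 2: caaattccatgaactgggcaCGG
Tbx20 guide in exon 4: gagctgctcgccagtaaaggGGG

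Libraries held 31214828 to 41950397 counts. As a check of the labels, Gata4 was at 46.7 to 65.5 CPM (counts per 1000000, scaled between libraries by TMM factors) in Gata4 KD and at 155 to 167 CPM in control, and Tbx20 was at 320 to 428 CPM in Tbx20 KD and at 720 to 1275 CPM in control. Gata4 fell by 1.55 on the log2 scale (SE 0.12, edgeR quasi-likelihood adjusted p = 0.00272). For Tbx20 the log2 fold change was -1.35 (SE 0.21) with an adjusted p of 0.748, although its groups did not overlap. In Gata4 KD the log2 fold change of Tbx20 was -0.52 (adjusted p 0.636). Summed over 9 fibroblast markers, levels were 10057 to 16248 CPM, while 8 cardiomyocyte markers summed to 0.857 to 2.03 CPM and Nppa was at 0 in every library. Libraries of the same group differed by more than counting noise.

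Compared per length, the family spanned more than 3 orders of magnitude. Levels were expressed as counts per kb of the gene's joined exons, scaled to the same total in each library, and are given as mean ± SD over all 9 libraries. Igfbp7, a matrix-bound protein that binds IGFs weakly compared with the other binding proteins, stood highest at 1321 ± 223 (SD, n = 9), 8.35 times the next member. Igf2r followed at 158 ± 15.3 (SD, n = 9) and Igf1r at 36.5 ± 3.82 (SD, n = 9). The lowest library of Igfbp7, Igf2r and Igf1r each lay above the highest library of the next gene in the order. Igfbp2 (21.5 ± 2.59), Igfbp4 (15.2 ± 1.58) and Igf1 (14.9 ± 6.33) made up the middle of the order. The ranges of these 3 genes overlapped, so their order was not separated beyond the spread between libraries. Igfbp6 (7.97 ± 1.15), Igfbp3 (6.11 ± 1.83) and Igfbp5 (4.69 ± 2.44) overlapped with their neighbours as well. Igf2, the ligand that dominates before birth, stood lowest at 0.624 ± 0.113 (SD, n = 9), below every library of every other member.

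**Figure D1:**
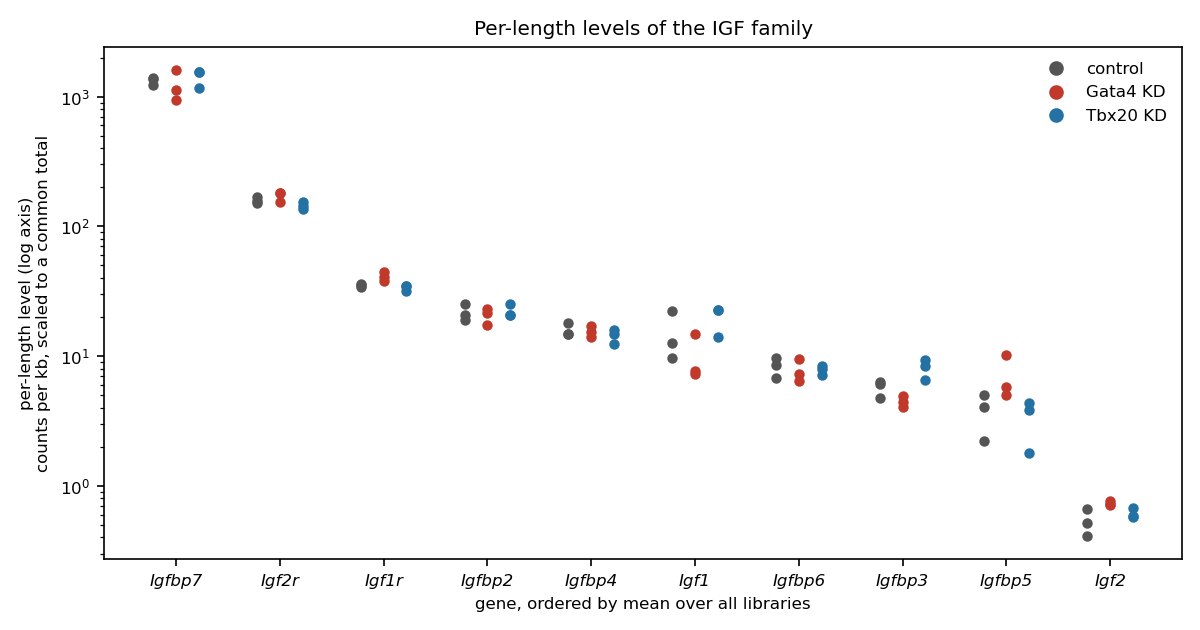
Per-length level of each member in every library (log axis, counts per kb of joined exons scaled to a common total), with genes ordered by their mean and points coloured by group. Igfbp7 lies between 946 and 1596, apart from Igf2r at 136 to 180, and Igf2 lies at the bottom between 0.411 and 0.762.

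Using the longest annotated transcript as the length in place of the joined exons exchanged Igf1 and Igfbp4 in this order and no other neighbours. Igfbp7 made up 95.1 to 96.5% of the summed per-length level of the 6 binding proteins, and Igf1 made up 91.1 to 97.5% of that of the ligands. Igfbp1, the liver binding protein that was not a member, had 1 count in 1 library and 0 in the others. Igfals, which codes for the subunit that stabilises circulating IGF complexes, had at most 2 counts in a library.

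Igf1 (ENSMUSG00000020053, chromosome 10, 87858265 to 87937042, plus strand) is the main growth factor of the family after birth. It was at 34.4, 59.3 and 26.1 CPM in control libraries a, b and c. In Gata4 KD it was at 21.5, 18.9 and 39.2 CPM, and in Tbx20 KD at 37.6, 60.4 and 60.4 CPM. Gata4 KD libraries a and b were the lowest of the 9, but library c lay within the range of control and above the lowest Tbx20 KD library, so no pair of groups was separated. The log2 fold change of Igf1 was -0.59 (95% confidence interval -1.37 to 0.20) in Gata4 KD against control, 0.41 (-0.27 to 1.09) in Tbx20 KD against control and -0.99 (-1.68 to -0.29) in Gata4 KD against Tbx20 KD. The adjusted p-values of these differences in edgeR's quasi-likelihood test were 0.723, 1.0 and 0.162. Without Gata4 KD library c the direct difference was -1.39 with an adjusted p of 0.0162. Without control b, the difference of Gata4 KD from control was -0.19 and that of Tbx20 KD 0.82, and without control c they were -0.82 and 0.19, none of them past the threshold.

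Gata4 KD a and b, the libraries with the least Igf1, also had the lowest sums of the 9 fibroblast markers, 11327 and 10057 CPM against at least 13351 CPM in the 7 others, and in Gata4 KD a the gene Gm42418 took 2.71% of all counts. The spread of Igf1 within groups moved with other transcripts, which were picked out after their values were seen. Decorin (Dcn), a collagen-binding proteoglycan of fibroblasts, was at 186 CPM in control b, where Igf1 was highest, and at 109 CPM in control c, where it was lowest. In Gata4 KD, Dcn was at 196 CPM in library c and 92.9 CPM in library b. The angiopoietin receptor gene Tek, held in the endothelial marker list, was at 35.7 CPM in control b, 20.7 CPM in control c, 33.5 CPM in Gata4 KD c and 16.2 CPM in Gata4 KD b. The library with the lowest Igf1 of each group was thus also that with the lowest Dcn and Tek, and in Tbx20 KD this was library a, with 105 CPM of Dcn and 23.3 CPM of Tek. Of the 6 endothelial markers 4 reached 1 CPM, and their sum was 32.9 to 52.5 CPM in control, 34.3 to 51.3 CPM in Gata4 KD and 38.4 to 49.6 CPM in Tbx20 KD, with the defining marker Cldn5 at 3 counts or fewer. Tek was the largest part of that sum, and not all endothelial markers followed it. Kdr, a VEGF receptor gene, was at 5.06 to 6.19 CPM in Gata4 KD, 2.29 to 3.47 CPM in control and 2.68 to 3.22 CPM in Tbx20 KD, and was higher in Gata4 KD than in Tbx20 KD (log2 fold change 0.90, SE 0.13, edgeR quasi-likelihood adjusted p = 0.0258), with an adjusted p of 0.0996 against control. Pecam1 had log2 fold changes of 0.58 (SE 0.29) in Gata4 KD against control and 0.36 (SE 0.19) in the direct comparison. The 8 leukocyte markers are of a lineage that also expresses Igf1. They summed to 47.4 to 54.0 CPM in control, 27.3 to 49.4 CPM in Gata4 KD and 45.0 to 67.1 CPM in Tbx20 KD. The lowest sum was in Gata4 KD b, and the defining marker Ptprc was at 1.62 to 3.13 CPM. Of these markers, Csf1r was at 5.28 to 7.43 CPM in Gata4 KD, below every library of the other groups. Its log2 fold changes in Gata4 KD were -0.64 (SE 0.17) against control and -0.40 (SE 0.17) against Tbx20 KD. The edgeR quasi-likelihood adjusted p-values were 0.236 and 0.293. Cd14 went the other way, with 0.36 (SE 0.21) and 0.21 (SE 0.18) in the same comparisons. The part of these transcripts in the values of Igf1 was not tested.

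Igf2 (ENSMUSG00000048583, chromosome 7, 142650766 to 142666816, minus strand) was barely expressed, with 24 to 42 counts in a library. It was at 0.65, 1.01 and 0.81 CPM in control, 1.17, 1.07 and 1.16 CPM in Gata4 KD, and 0.90, 0.88 and 1.04 CPM in Tbx20 KD. All 3 Gata4 KD libraries lay above all other libraries, though Gata4 KD b (39 counts) was close to Tbx20 KD c (42 counts in a deeper library). The log2 fold change was 0.46 (SE 0.25, edgeR quasi-likelihood adjusted p = 0.700) in Gata4 KD against control, 0.20 (SE 0.25, adjusted p 1.0) in Tbx20 KD against control, and 0.27 (SE 0.18, adjusted p 0.493) in the direct comparison. H19, the noncoding RNA expressed from the other parental copy of the same imprinted region, was at 0.440 to 1.47 CPM over the 9 libraries. Igf2bp2 and Igf2bp3, which bind Igf2 mRNA among others, were at 22.5 to 34.5 CPM in mean over each group.

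The signalling receptor Igf1r (ENSMUSG00000005533, chromosome 7, 67952827 to 68233668, plus strand) varied little. It was at 163, 152 and 164 CPM in control, 178, 194 and 182 CPM in Gata4 KD, and 158, 143 and 157 CPM in Tbx20 KD. All 3 Gata4 KD libraries were above all 6 others, while control and Tbx20 KD overlapped. The log2 fold change was 0.21 (SE 0.08, edgeR quasi-likelihood adjusted p = 0.482) in Gata4 KD against control and -0.05 (SE 0.07, adjusted p 1.0) in Tbx20 KD against control. In the direct comparison Igf1r was 20.9% higher in Gata4 KD, with a log2 fold change of 0.27 (95% confidence interval 0.13 to 0.41, adjusted p 0.0824 in the same test), which did not pass the threshold of 0.05. DESeq2 and edgeR's exact test did call it, with adjusted p-values of 0.00711 and 0.0180.

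The scavenger receptor Igf2r (ENSMUSG00000023830, chromosome 17, 12682406 to 12769664, minus strand) was, per length, the member next to Igfbp7. It was at 436, 389 and 383 CPM in control, 402, 439 and 446 CPM in Gata4 KD, and 363, 339 and 389 CPM in Tbx20 KD. Control overlapped with both knockdowns, whereas each Gata4 KD library was above each Tbx20 KD library. The log2 fold change was 0.09 (SE 0.09) in Gata4 KD against control, -0.14 (SE 0.08) in Tbx20 KD against control and 0.24 (95% confidence interval 0.08 to 0.40) in the direct comparison. The adjusted p of the last was 0.152 in edgeR's quasi-likelihood test.

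**Figure D2:**
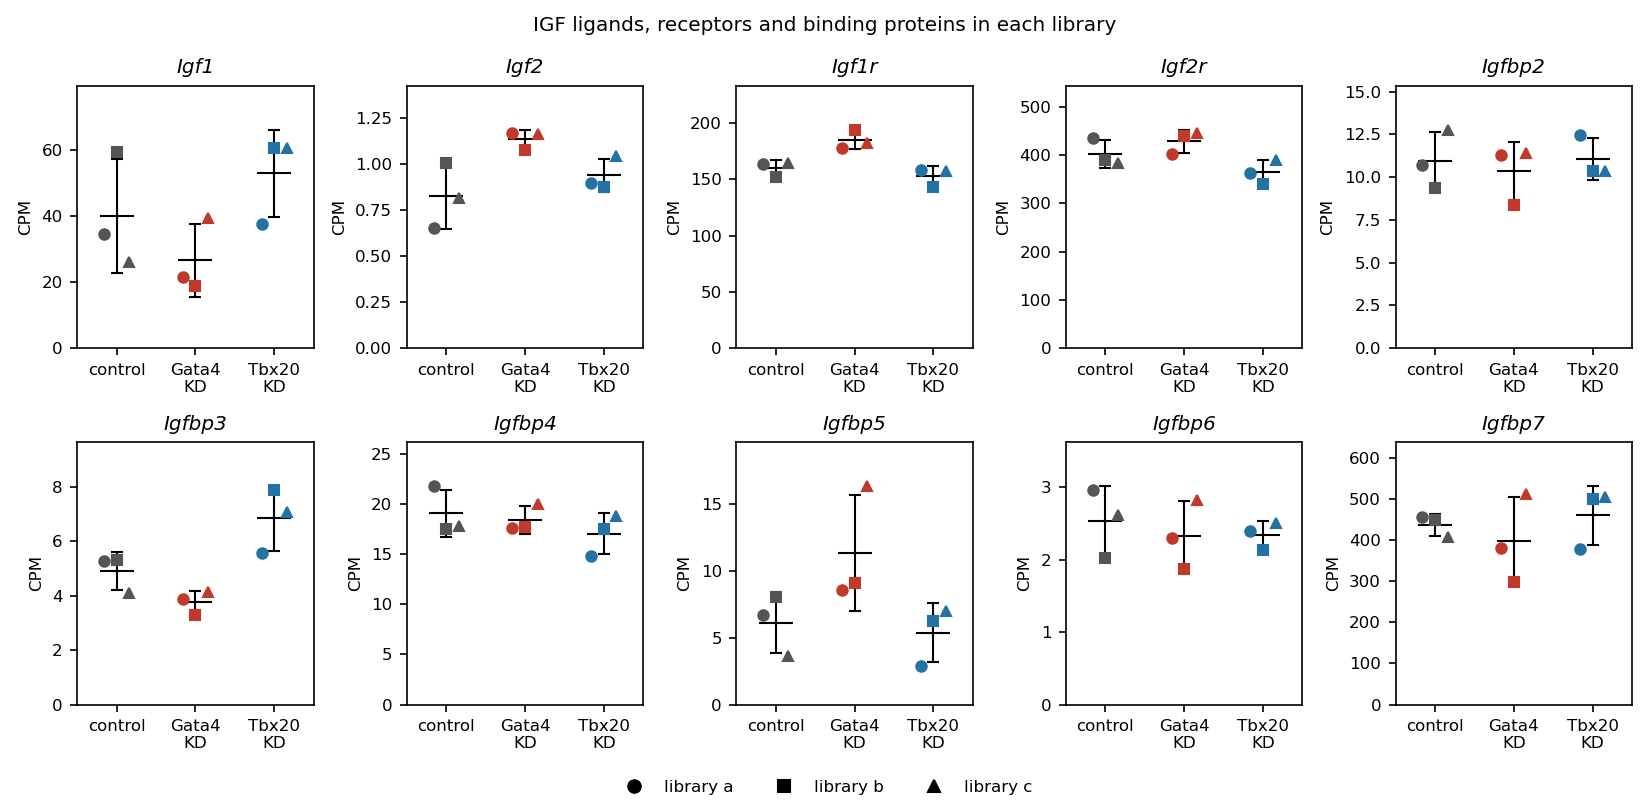
Expression of each member in every library (CPM, linear axes that start at 0), with circles, squares and triangles for libraries a, b and c, and the mean ± SD of the 3 libraries in black. Igfbp3 is at 3.30 to 4.12 CPM in Gata4 KD and 5.56 to 7.90 CPM in Tbx20 KD, and Igf1r lies higher in Gata4 KD than in every other library.

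Igfbp3 (ENSMUSG00000020427, chromosome 11, 7206086 to 7213923, minus strand), the main IGF carrier of the circulation, came nearest to the threshold. It was at 5.28, 5.32 and 4.10 CPM in control, from 136 to 194 counts. In Gata4 KD it was at 3.87, 3.30 and 4.12 CPM, and in Tbx20 KD at 5.56, 7.90 and 7.09 CPM. Every Tbx20 KD library was above every library of the other groups, and Gata4 KD overlapped with control only through Gata4 KD c and control c, which were at the same level to 1 decimal. The log2 fold change was -0.38 (SE 0.17, edgeR quasi-likelihood adjusted p = 0.594) in Gata4 KD against control and 0.49 (SE 0.17, adjusted p 1.0) in Tbx20 KD against control. Between the knockdowns Igfbp3 was 44.9% lower in Gata4 KD, with a log2 fold change of -0.86 (95% confidence interval -1.23 to -0.49) and an adjusted p of 0.0527 in the same test. It passed under 6 of 13 alternatives, among them DESeq2 (adjusted p 4.7e-04), no filter on low counts (0.0211), and leaving out Gata4 KD c (0.0320) or Tbx20 KD a (0.0446). Its adjusted p was highest, at 0.228, without Tbx20 KD c.

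Between the knockdowns a marker of epicardial cells passed the threshold, which Igfbp3 did not. The 7 epicardial markers summed to 9.43 to 17.2 CPM in Gata4 KD, 27.1 to 44.1 CPM in Tbx20 KD and 25.5 to 49.3 CPM in control. In control and Tbx20 KD most of this was Lrrn4, a mesothelial membrane protein gene at 2.09 to 2.74 CPM in Gata4 KD and 19.8 to 31.9 CPM in Tbx20 KD (log2 fold change -3.42, SE 0.20, edgeR quasi-likelihood adjusted p = 0.000961), while the defining markers Msln and Krt8 had at most 12 counts in a library. Against control, Lrrn4 had a log2 fold change of -3.38 in Gata4 KD (SE 0.27, adjusted p 0.00272 in the same test). In Tbx20 KD it was 0.05 (SE 0.26). The keratin gene Krt19, the largest part of the sum in Gata4 KD, went the other way, with 4.15 to 11.9 CPM in Gata4 KD and 2.48 to 5.79 CPM in Tbx20 KD (1.17, SE 0.44, adjusted p 0.235). Upk3b was at 0.605 to 1.11 CPM in Gata4 KD, 1.76 to 2.41 CPM in Tbx20 KD and 1.66 to 3.92 CPM in control. Upk1b was at 1.33 to 1.73, 1.35 to 2.79 and 2.13 to 4.41 CPM in the same order. In Gata4 KD against control their log2 fold changes were -1.51 (SE 0.40, adjusted p 0.247 in the same test) and -1.16 (SE 0.28, adjusted p 0.201). Wt1, a transcription factor of the epicardium, had a log2 fold change of -0.18 (SE 0.31) between the knockdowns. Tcf21, a transcription factor of fibroblast precursors held in the fibroblast list, did not pass and was at 88.1 to 156 CPM in Gata4 KD and 184 to 250 CPM in Tbx20 KD (log2 fold change -0.90, SE 0.21, adjusted p 0.0932). The part of these transcripts in the level of Igfbp3 was not tested.

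Igfbp5 (ENSMUSG00000026185, chromosome 1, 72857932 to 72874884, minus strand), a matrix-binding member linked to fibrosis, had the most uneven levels. It was at 6.72, 8.03 and 3.61 CPM in control, 8.53, 9.11 and 16.3 CPM in Gata4 KD, and 2.91, 6.20 and 7.01 CPM in Tbx20 KD. The 3 Gata4 KD libraries were above all others, but libraries a and b only narrowly above control b, and library c stood well apart. The log2 fold change was 0.89 (95% confidence interval 0.13 to 1.64, edgeR quasi-likelihood adjusted p = 0.478) in Gata4 KD against control, and -0.19 (-1.02 to 0.65, adjusted p 1.0) in Tbx20 KD against control. In the direct comparison it was 1.08 (0.23 to 1.93, adjusted p 0.196). Without Gata4 KD c this fell to 0.72, and DESeq2 called the difference with an adjusted p of 0.0294. Gata4 KD c also held the highest sum of 6 mural cell markers, 529 CPM against 284 to 380 CPM in the other libraries, nearly all of it Pdgfrb, with the defining marker Kcnj8 at 2 counts or fewer in every library. The pericyte gene Rgs5 was at 4.02 to 6.33 CPM in Gata4 KD and 1.90 to 3.54 CPM in the other groups (0.93 against control, adjusted p 0.265, and 0.73 against Tbx20 KD, adjusted p 0.140), whereas Notch3 had log2 fold changes of -0.48 and -0.66. The part of such cells was not tested.

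The remaining binding proteins showed no separation between any pair of groups. Igfbp2 (ENSMUSG00000039323, chromosome 1, 72824503 to 72852474, plus strand) lies next to Igfbp5 in the genome and was at 8.39 to 12.8 CPM over the 9 libraries. Igfbp4 (ENSMUSG00000017493, chromosome 11, 99041244 to 99054392, plus strand), the substrate from which PAPP-A releases IGF, was at 14.8 to 21.8 CPM. Igfbp6 (ENSMUSG00000023046, chromosome 15, 102144362 to 102149511, plus strand), which prefers IGF2, was at 1.87 to 2.96 CPM with 68 to 109 counts. For these 3 genes the 95% confidence intervals of the log2 fold change, over the 3 comparisons, reached no further than -0.64 and 0.42. Changes within those limits could not be told from no change at this depth and number of libraries.

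Igfbp7 (ENSMUSG00000036256, chromosome 5, 77349240 to 77408041, minus strand) was at 458, 449 and 407 CPM in control, 381, 299 and 514 CPM in Gata4 KD, and 378, 500 and 504 CPM in Tbx20 KD. Gata4 KD held both the highest and the lowest library of the series. Its log2 fold change was -0.14 (95% confidence interval -0.54 to 0.26) in Gata4 KD against control, 0.08 (-0.19 to 0.36) in Tbx20 KD against control and -0.21 (-0.67 to 0.25) in the direct comparison.

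The comparisons were then read across the family. In Gata4 KD against control, 0 of 10 members passed an adjusted p of 0.05 in edgeR's quasi-likelihood test, where 0.380% of 14468 genes did. At an unadjusted p under 0.05 there were 2 members, Igf1r and Igfbp5, both higher, against 8.54% of genes. DESeq2, edgeR's exact test and limma-voom also called 0, where they called 273, 250 and 48 of all genes tested. In 3 members, Igf1r, Igf2 and Igfbp5, the groups did not overlap, against 13.8% of genes. The median log2 fold change of the 10 members was -0.07, and that of all genes tested -0.02.

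In Tbx20 KD against control, 0 of 10 members passed in edgeR's quasi-likelihood test, where 0.00687% of 14547 genes did, a single gene. Tbx20 itself did not pass this test (log2 fold change -1.35, adjusted p 0.748), so 0 calls do not show that no member changed. At an unadjusted p under 0.05 there was 1 member, Igfbp3, against 2.69% of genes, and it was also the 1 member without overlap, against 6.74% of genes. DESeq2, edgeR's exact test and limma-voom called 0 members, where they called 10, 8 and 1 of all genes tested. The median log2 fold change was -0.01 for the members and -0.002 for all genes tested.

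**Figure D3:**
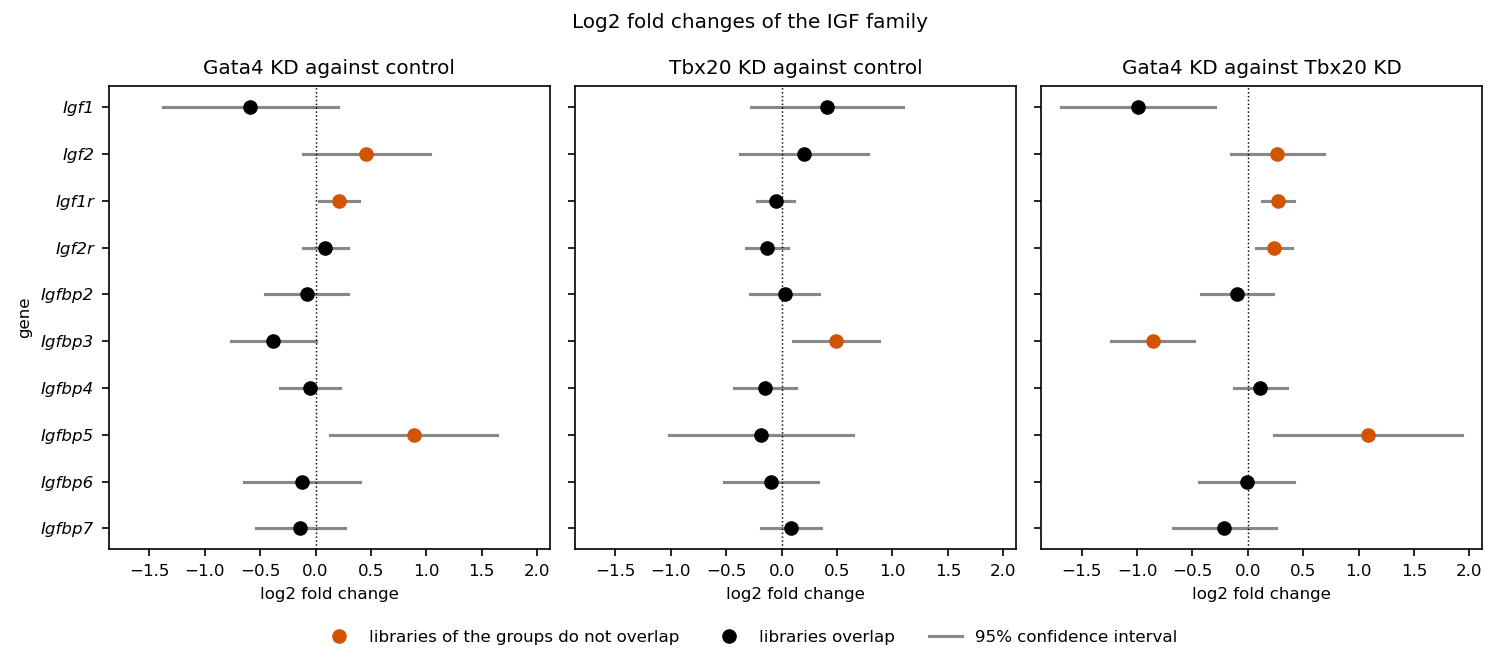
Log2 fold change of each member in the 3 comparisons (edgeR, points) with its 95% confidence interval (bars); orange points mark genes whose groups of 3 libraries do not overlap. In Gata4 KD against Tbx20 KD, 5 members do not overlap and 5 intervals leave out 0, against 3 and 2 in Gata4 KD against control. Of all genes tested, 23.0% and 13.8% do not overlap in these 2 comparisons. An unadjusted p under 0.05 in edgeR's quasi-likelihood test is reached by 16.7% and 8.54% of them.

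The direct comparison asked whether the knockdowns differed from each other, and uses no control library. There, 0 of 10 members passed in edgeR's quasi-likelihood test, where 1.44% of 14477 genes did (118 higher and 90 lower, or 90 higher and 112 lower when scaled by library size alone). DESeq2 called 3 members, Igf1r, Igfbp3 and Igfbp5, the exact test called 3, Igf1, Igf1r and Igfbp3, and limma-voom called 0. Of all 14477 genes tested, these methods called 761, 729 and 196 in the same order. At an unadjusted p under 0.05 there were 5 members, against 16.7% of genes. Of these Igf1r, Igf2r and Igfbp5 were higher in Gata4 KD, and Igf1 and Igfbp3 were lower. In 5 members the groups did not overlap, against 23.0% of genes, with Igf2, Igf1r, Igf2r and Igfbp5 higher and Igfbp3 lower. The median size of the log2 fold change, without its sign, was 0.25 in the members and 0.11 in all genes tested. Without Gata4 KD c the quasi-likelihood test called 2 members, Igf1 and Igfbp3, and without Tbx20 KD a it called Igfbp3. Over all genes these fits called 801 of 14656 and 104 of 14668.

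The balance of binding protein to ligand transcript was described by dividing the summed per-length level of the 6 binding proteins by that of both ligands. The ratio was 110, 62.5 and 127 in control, 139, 124 and 106 in Gata4 KD, and 82.7, 68.5 and 68.9 in Tbx20 KD. The Gata4 KD and Tbx20 KD libraries did not overlap, and control spanned from below the lowest Tbx20 KD library to above 2 Gata4 KD libraries. Because Igfbp7 supplied nearly all of the numerator, the ratio was also taken without it, and was then 4.52, 2.26 and 5.49 in control, 6.23, 6.11 and 4.15 in Gata4 KD, and 3.67, 2.41 and 2.48 in Tbx20 KD. The separation of the knockdowns was the same in both forms, with library c the lowest of Gata4 KD and library a the highest of Tbx20 KD. Igf1 supplied most of the denominator in every library, and the ratios are given as a description, with no test.

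**Figure D4:**
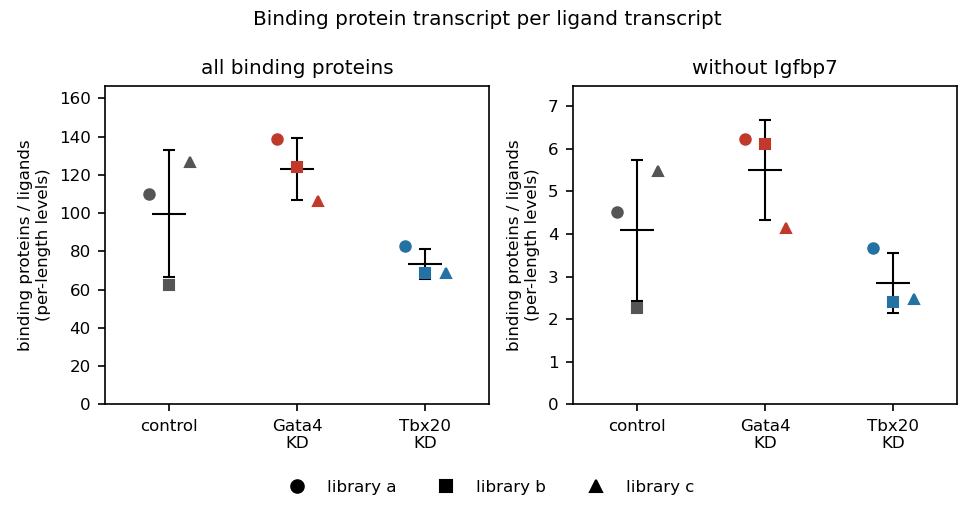
Summed per-length level of the binding proteins divided by that of the ligands, in each library, with all 6 binding proteins (left) and without Igfbp7 (right); black marks give the mean ± SD of 3 libraries. Gata4 KD lies at 106 to 139 and Tbx20 KD at 68.5 to 82.7 on the left.

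Upstream sequence was searched for the binding motifs of the factors that were knocked down. For all 10 members RefSeq (GRCm38.p6) gave 14 windows of the 250 bases before a RefSeq transcription start. By GENCODE M21, some windows overlap exons of their own gene. Among them is that of Igf1, which begins at 87860861, inside the gene that starts at 87858265. The window of Igfbp6 ends at 102144185, before the GENCODE start of the gene at 102144362. The GATA motif was written AGATAA or AGATAG, or either of these with T as its first letter, on either strand. It occurred in 2 of the 14 windows, the only ones of Igf1 and Igfbp6, and in 26.5% of all 32851 windows. The T-box motif AGGTGT on either strand occurred in 0 of the 14 windows and in 11.8% of all windows. The window of Igfbp3, the member nearest to the threshold, and that of Igfbp6, whose log2 fold change in Gata4 KD against control was -0.12 (SE 0.23), are shown to set a window with no match beside one with matches. Capitals mark GATA matches, which in Igfbp6 begin 68 and 36 bases before the start. These are descriptions of letters in the windows and say nothing on binding.
Igfbp3, chr11:7213924-7214173, minus strand: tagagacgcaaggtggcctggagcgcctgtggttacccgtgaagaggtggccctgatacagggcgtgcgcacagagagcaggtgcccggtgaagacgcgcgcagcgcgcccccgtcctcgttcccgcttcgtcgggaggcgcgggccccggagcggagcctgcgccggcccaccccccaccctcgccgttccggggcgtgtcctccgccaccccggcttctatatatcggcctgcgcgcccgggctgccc
Igfbp6, chr15:102143936-102144185, plus strand: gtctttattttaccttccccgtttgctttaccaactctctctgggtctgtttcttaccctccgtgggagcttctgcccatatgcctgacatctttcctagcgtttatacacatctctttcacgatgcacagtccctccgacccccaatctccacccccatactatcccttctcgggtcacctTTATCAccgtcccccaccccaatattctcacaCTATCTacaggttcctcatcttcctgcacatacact

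The other genes of the IGF axis, 64 in 6 lists, held those that passed the test. Among the 7 genes for proteases of binding proteins and inhibitors of these proteases, the stanniocalcins Stc1 and Stc2, secreted glycoproteins that inhibit PAPP-A, differed between the knockdowns in opposite directions. Stc2 (ENSMUSG00000020303, chromosome 11, 31357307 to 31370074, minus strand) was at 15.1, 16.2 and 14.9 CPM in control, 7.72, 7.02 and 9.98 CPM in Gata4 KD, and 13.1, 15.6 and 15.2 CPM in Tbx20 KD. Every Gata4 KD library was below every other library. Stc2 was 46.6% lower in Gata4 KD than in control (log2 fold change -0.90, SE 0.14, edgeR quasi-likelihood adjusted p = 0.0493) and 43.7% lower than in Tbx20 KD (-0.83, SE 0.14, adjusted p 0.0430). In Tbx20 KD against control its log2 fold change was -0.07 (SE 0.10).

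Stc1 (ENSMUSG00000014813, chromosome 14, 69029238 to 69041804, plus strand) was at 1.80, 2.01 and 2.26 CPM in control, 7.50, 8.92 and 3.76 CPM in Gata4 KD, and 2.22, 1.41 and 1.83 CPM in Tbx20 KD. The Gata4 KD libraries were again apart from all others, with library c nearest to them. Stc1 was 3.65-fold higher in Gata4 KD than in Tbx20 KD (log2 fold change 1.87, SE 0.33, edgeR quasi-likelihood adjusted p = 0.0464). Against control the log2 fold change was 1.73 (SE 0.31) with an adjusted p of 0.0748, and DESeq2 called it with 5.73e-06. In Tbx20 KD against control it was -0.13 (SE 0.21).

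Pappa, which codes for PAPP-A itself (chromosome 4, 65124174 to 65357509, plus strand), was at 107, 131 and 101 CPM in control, 117, 128 and 141 CPM in Gata4 KD, and 87.4, 90.0 and 104 CPM in Tbx20 KD. The knockdowns did not overlap, and control overlapped with both. Its log2 fold change between the knockdowns was 0.45 (SE 0.09, edgeR quasi-likelihood adjusted p = 0.0627), and in Tbx20 KD against control it was -0.26 (SE 0.12, adjusted p 1.0).

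Of the fits that left out 1 library, only those without Gata4 KD c kept the calls of both stanniocalcins. Calls over all genes moved too. In the direct comparison they went from 208 to 22, 55 and 801 without Gata4 KD a, b or c. Without Tbx20 KD a, b or c they were 104, 28 and 27. In Gata4 KD against control they went from 55 to between 6 and 189. Stc2 against control had adjusted p-values in edgeR's quasi-likelihood test of 0.249 without control a, 0.0509 without control b, 0.121 without control c, 0.273 without Gata4 KD a, 0.185 without Gata4 KD b and 0.0224 without Gata4 KD c. In the direct comparison Stc2 had 0.178, 0.115 and 0.00544 without Gata4 KD a, b or c, and 0.0590, 0.193 and 0.193 without Tbx20 KD a, b or c. Stc1 there had 0.178, 0.132 and 0.00177 without Gata4 KD a, b or c, and 0.0878, 0.209 and 0.218 without Tbx20 KD a, b or c. The log2 fold changes kept their sign throughout, at -1.04 to -0.72 for Stc2 and 1.47 to 2.15 for Stc1 over both comparisons.

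**Figure D5:**
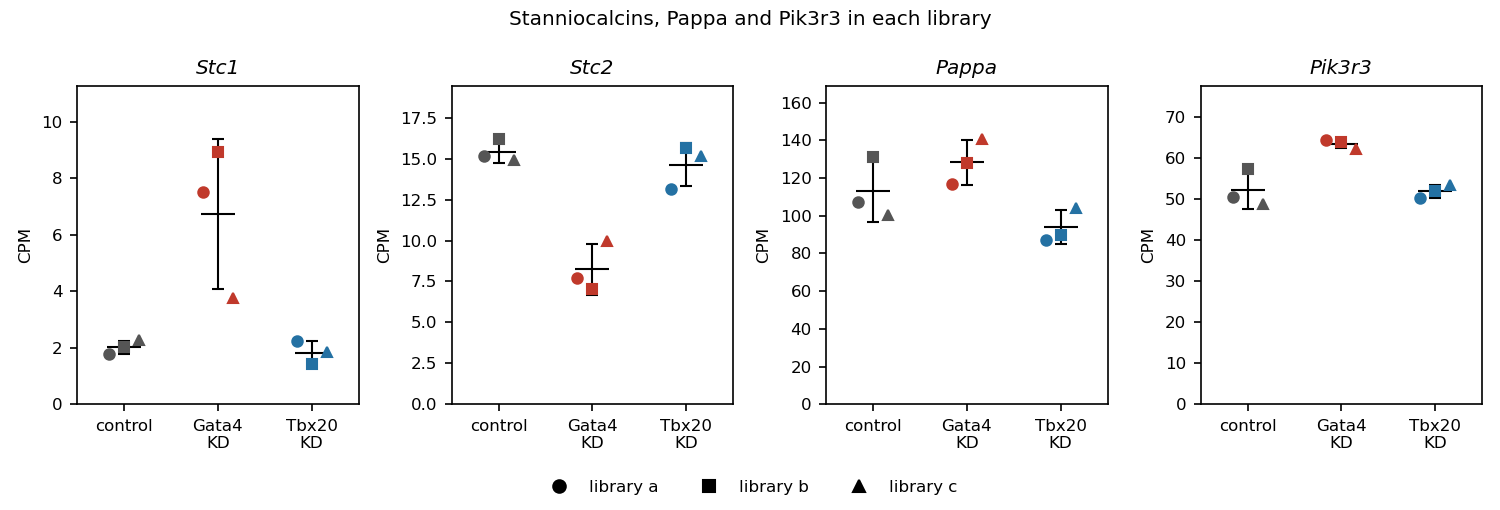
Expression of Stc1, Stc2, Pappa and Pik3r3 in every library (CPM, linear axes that start at 0), with circles, squares and triangles for libraries a, b and c, and the mean ± SD of 3 libraries in black. Stc1 lies at 3.76 to 8.92 CPM and Stc2 at 7.02 to 9.98 CPM in Gata4 KD, outside the range of the other 6 libraries.

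Of the 30 genes for insulin and IGF receptor signalling, 28 could be tested, and 1 of them passed. Pik3r3 (chromosome 4, 116221618 to 116303056, plus strand), a regulatory subunit of PI3K, was at 50.6, 57.3 and 48.8 CPM in control, 64.5, 64.0 and 62.3 CPM in Gata4 KD, and 50.4, 52.0 and 53.5 CPM in Tbx20 KD. Gata4 KD lay above all other libraries with little spread. It was 22.4% higher in Gata4 KD than in Tbx20 KD (log2 fold change 0.29, SE 0.05, edgeR quasi-likelihood adjusted p = 0.0358), and against control the log2 fold change was 0.28 (SE 0.09, adjusted p 0.329). Without Gata4 KD a or b the adjusted p of the direct comparison was 0.163 or 0.110, without Gata4 KD c it was 0.0252, and without Tbx20 KD a, b or c it was 0.0959, 0.181 or 0.152. Pik3r1, which codes for another regulatory subunit, was at 159 to 200 CPM in Gata4 KD and 114 to 161 CPM in control (log2 fold change 0.35, SE 0.14, adjusted p 0.534). Grb14, an adaptor that inhibits the insulin receptor, had log2 fold changes of -0.34 (SE 0.17) in Gata4 KD and -0.26 (SE 0.15) in Tbx20 KD against control.

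In Tbx20 KD against control, 0 of 57 tested genes of the axis passed in edgeR's quasi-likelihood test and 0 had an unadjusted p under 0.05, against 0.00687% and 2.69% of all genes. DESeq2, the exact test and limma-voom also called 0. Tbx20 itself had an adjusted p of 0.748 in the quasi-likelihood test, so 0 calls there do not show that no axis gene changed. The highest log2 fold changes belonged to Foxo1, a transcription factor that AKT keeps out of the nucleus, with 0.30 (SE 0.13), and to Socs2, a feedback inhibitor of growth hormone signalling, with 0.29 (SE 0.17). In Gata4 KD against control, 56 genes were tested, 0 were called higher and 1 was called lower, while an unadjusted p under 0.05 was reached by 7, of which 6 were higher. Over all genes these shares were 0.380% and 8.54%, the latter with 564 higher and 671 lower. In the direct comparison, 57 genes were tested, 2 were called higher and 1 lower, while 17 reached an unadjusted p under 0.05, of which 13 were higher in Gata4 KD. Over all genes the shares were 1.44% and 16.7%, the latter with 1333 higher and 1089 lower. The median log2 fold change of the axis was 0.06 in Gata4 KD against control, 0.01 in Tbx20 KD against control and 0.05 in the direct comparison, where that of all genes tested was -0.006.

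By list, the protease and inhibitor genes had 2 of 7 members called in the direct comparison and 4 without overlap between the knockdowns. Receptor signalling had 1 of 28 called and 11 without overlap, 9 of these higher in Gata4 KD. Of all genes 1.44% were called and 23.0% did not overlap, 1768 of them higher and 1560 lower in Gata4 KD. The carriers and co-receptors (3 of 6 tested), growth hormone input (5 of 5), Igf2 locus and Igf2 mRNA binding genes (5 of 6) and FoxO targets (9 of 10) had 0 called in edgeR's quasi-likelihood test, with 2, 1, 0 and 1 genes under an unadjusted p of 0.05. Foxo1 stood at a log2 fold change of -0.34 (SE 0.11, with 0.191 as adjusted p) between Gata4 KD and Tbx20 KD. The growth hormone receptor gene Ghr was expressed at 205 to 313 CPM in control.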

How the data were processed

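Per the study's methods, the authors trimmed 75-base single-end stranded reads, used Bowtie2 and RSEM on GRCm38, and the submitters' processing notes name mm9. The deposited values are RSEM's expected counts, rounded to integers and left without normalization. Reads matching several genes are shared out by RSEM; of 75-base transcript windows, at most 0.39% of any member's also occur in another gene of the table. All columns belong to the 9 libraries.

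The members and lists were chosen with earlier results of these data known. Symbols, positions and lengths came from GENCODE M21. Each comparison was fitted on its 6 libraries in R 4.3.3 with edgeR 4.0.16 (filterByExpr, TMM factors, quasi-likelihood F test, no covariate), with Benjamini-Hochberg adjustment over all genes tested and a threshold of 0.05. All 10 members passed the filter. An exact permutation of 3 against 3 libraries cannot go below 0.1 and was not used. Named were all members, Gata4, Tbx20, axis genes past the threshold, the 2 highest and 2 lowest axis genes by log2 fold change with a mean of at least 1 CPM, and defining cell type markers. Igfbp1, Igfals, H19, Igf2bp2, Igf2bp3, Ghr, Gm42418 and the other markers (Col1a1, Col1a2, Col3a1, Vim, Pdgfra, Thy1, Lum, Dcn, Tek, Kdr, Pecam1, Csf1r, Cd14, Lrrn4, Krt19, Upk3b, Upk1b, Wt1, Tcf21, Pdgfrb, Rgs5, Notch3) were named outside this rule, after their values were seen. Replicates were called biological by the study; no label names an animal or batch, so p-values measure the spread between these libraries. Alternatives were DESeq2 1.42.0, limma-voom (limma 3.58.1), an exact test, library size alone, no filter, 1 fit of all 9 libraries, a block for the replicate letter, and leaving out each library. The procedure was tested on simulated counts.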

Additional observations from a re-analysis of the deposited data

Results flagged for a closer look

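In 3 of the 57 tested genes of the IGF axis the responses to the knockdowns differed in the direct test of Gata4 KD against Tbx20 KD (edgeR's quasi-likelihood test). These were Stc1 with a log2 fold change of 1.87, Stc2 with -0.83 and Pik3r3 with 0.29. In each, all 3 Gata4 KD libraries lay outside the range of all 3 Tbx20 KD libraries, and none of the calls held when Gata4 KD a, Gata4 KD b or any Tbx20 KD library was left out, with adjusted p-values up to 0.218 for Stc1, 0.193 for Stc2 and 0.181 for Pik3r3. Of all genes tested in this comparison, 1.44% were called and 23.0% did not overlap between the knockdowns. Groups of 3 libraries were too small to test single libraries for standing apart.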

How the results depend on the processing

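Over the 13 alternatives of each comparison, 363 of 390 values for the members kept their direction and their side of the threshold, 11 passed it and 16 changed sign; all 11 that passed were in Gata4 KD against Tbx20 KD. There the number of members called rose from 0 to 3 under DESeq2, 3 under the exact test, 1 with no filter on low counts and 1 with all 9 libraries in one fit, and was 0 to 2 when single libraries were left out. In both comparisons with control it was 0 under every alternative. The axis genes called in Gata4 KD against control were 1, and 2 under DESeq2, the exact test, no filter and all 9 libraries, and 0 to 2 without single libraries. In Gata4 KD against Tbx20 KD they were 3, with 8 under DESeq2, 6 under the exact test and 0 to 7 without single libraries. No label says whether the replicate letters mark shared animals or cultures. Deviations from group means correlated at -0.170 to 0.255 for same-letter libraries and at -0.385 to 0.347 for different letters. With 3 libraries in a group, these values cannot decide whether the letters pair the libraries. With the letter as a block, axis genes called were 0 in Gata4 KD against control and 1 (Pappa) in Gata4 KD against Tbx20 KD. Members called were then 0 in every comparison. The calls over all genes went from 55, 1 and 208 to 5, 2 and 101. Over all genes the calls ranged over the alternatives from 5 to 273 in Gata4 KD against control, 1 to 10 in Tbx20 KD against control and 22 to 801 in the direct comparison; DESeq2 gave 273, 10 and 761, and leaving out Gata4 KD c gave 81 and 801. The causes were not tested.

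All 16 changes of sign came from leaving out 1 library, in log2 fold changes near 0. Over those fits Igfbp2 ranged from -0.18 to 0.051 in Gata4 KD against control, -0.068 to 0.16 in Tbx20 KD against control and -0.18 to 0.034 in the direct comparison. Igfbp6 ranged from -0.26 to 0.017, -0.23 to 0.024 and -0.18 to 0.13 in the same order. In Gata4 KD against control, Igfbp4 ranged from -0.11 to 0.058 and Igfbp7 from -0.34 to 0.032, and in Tbx20 KD against control Igfbp5 ranged from -0.45 to 0.12.

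With the longest transcript as length, the mean ratio of binding proteins to ligands was 90.1 in Gata4 KD and 53.3 in Tbx20 KD, against 123 and 73.3 with joined exons. Without Igfbp7 it was 4.09 in control, 5.50 in Gata4 KD and 2.85 in Tbx20 KD. CPM by library size alone moved 30 of 30 group means of the members by less than 1 SD. Igf2, at 42 counts or fewer, and the spread between 3 libraries limit what these data can separate.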
